A study of Mus musculus with 16 samples.

Results

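The genes described here are Ppara and 7 targets of the receptor it encodes, Cyp4a10, Cyp4a14, Ehhadh, Cpt1a, Acadm, Pdk4 and Fgf21, taken from the expression tables by symbol. All 8 are among the 12446 genes listed in both tables, out of 13715 genes listed after 8 weeks of carbon tetrachloride (CCl4) and 12922 after the injections had stopped. All 8 also passed the filter on low values at both stages. Whole-liver RNA was sequenced from 16 mice in 4 groups of 4. Wild-type (Mfap2+/+) and knockout (Mfap2-/-) mice were sampled after 8 weeks of intraperitoneal CCl4, and further mice of each genotype when 4 weeks without CCl4 had followed those 8 weeks, a stage called reversal here. Every group had therefore received CCl4, a hepatotoxin bioactivated by pericentral hepatocytes, and untreated mice were not analysed here. The strain, sex, age, feeding state, hour of sampling and the way the allele was made are not stated in the labels. Mfap2 encodes a protein of extracellular microfibrils, and the study compares livers with and without it in fibrosis and its regression.

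PPAR-alpha is a nuclear receptor of hepatocytes that is activated by fatty acids and, as a dimer with the retinoid X receptor, binds direct repeats of the hexamer AGGTCA separated by a single base. During fasting it raises the genes that take fatty acids apart. Enzymes of the Cyp4a family hydroxylate the far (omega) end of a fatty acid, peroxisomal enzymes shorten long chains, and mitochondria import acyl groups on carnitine and oxidise them to acetyl-CoA, from which ketone bodies are made. Cyp4a10 and Cyp4a14 are among its most responsive targets in mouse liver.

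The level of a gene is given in FPKM, fragments scaled to transcript length and to the size of the library. A genotype difference is knockout minus wild type on the scale log2(FPKM + 1), with its standard error, from limma. The adjusted p is Benjamini-Hochberg over all genes tested, 11928 at 8 weeks and 11032 after reversal, with a threshold of 0.05. The tables were scaled separately, and stage, table and any difference of library kit between the stages cannot be told apart. Levels of the stages are therefore given side by side without a test. For reversal the labels name the 8-week kit or another, and a difference of kit among the reversal mice was not tested.

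Mfap2 stood at 0.902 to 3.07 FPKM in the wild-type mice at 8 weeks and at 0.17 to 0.47 FPKM after reversal, and it was listed at 0 in all 8 knockout libraries (exact permutation p = 0.0286 at each stage, 2-sided, the smallest that 4 mice against 4 can give). The defining hepatocyte transcript, Alb, averaged 36951 ± 8366 (wild type) and 24089 ± 5066 FPKM (knockout; SD, n = 4 each) at 8 weeks, without overlap, and 37939 ± 7200 and 34331 ± 13462 FPKM after reversal. Libraries stood apart at both stages. At 8 weeks wild-type mice 1 and 2 lay at one end of the first principal component, which held 53.5% of the variance. After reversal wild-type mouse 1 and knockout mice 2 and 3 did so on a component with 45.9%, and 38.1%, 32.4% and 37.5% of their FPKM came from mitochondrial genes, against 23.5% to 29.8% in the other 5. The difference of the median gene was 0.23 at 8 weeks and 0.10 after reversal, both towards the knockout. Among genes with an unadjusted p under 0.05 at 8 weeks, the higher ones made up 88.8%; the share was 52.7% once libraries were scaled by median ratios and 57.6% once quantile-normalized. Its values after reversal were 82.2%, 53.6% and 52.2%. In whole liver, fewer cells of a type and less RNA per cell cannot be told apart.

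None of the 8 genes passed the adjusted threshold at either stage. Cyp4a10 after reversal came nearest: its mean in the knockout livers was 0.527 of the wild-type mean and no knockout value reached a wild-type value. The other genes overlapped between the genotypes at both stages. At 8 weeks 5 of the 8 were lower in the knockout, where 17.4% of all genes were, and after reversal 7 of the 8, where 29.3% of all genes were. The remaining gene after reversal, Fgf21, was higher, as were 70.7% of all genes.

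**Figure D1:**
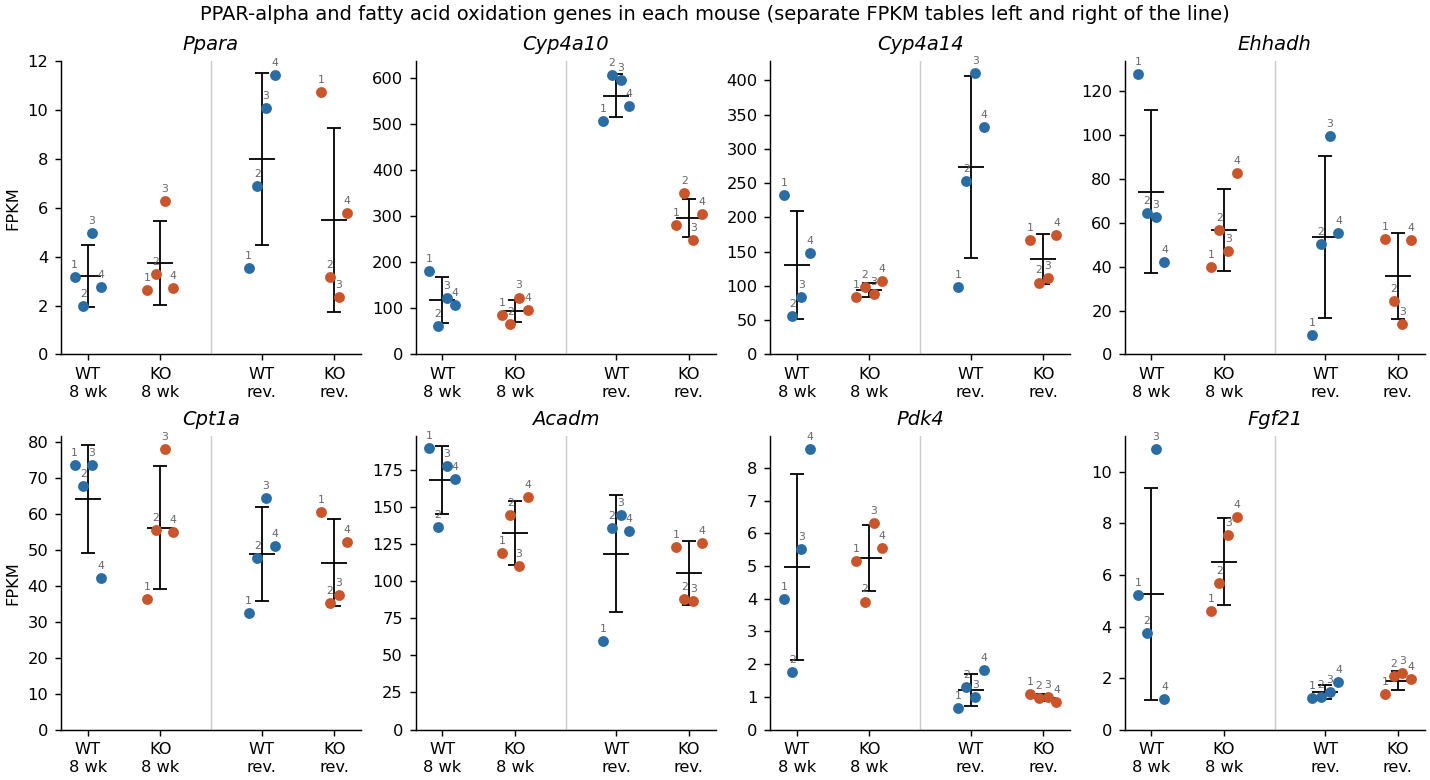
FPKM of each gene (vertical axis, linear, from 0) in each mouse, with the mouse number beside each point, wild type (WT) in blue and knockout (KO) in orange, at 8 weeks of CCl4 (8 wk) and after reversal (rev.), which come from separately scaled tables. Black bars are the mean and SD of 4 mice, and Cyp4a10 after reversal is the panel in which the genotypes do not overlap.

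The promoters of 6 of the 8 genes were matched in RefSeq (GRCm38.p6, 250 bases before to 50 after the RefSeq start of the gene), those of Cyp4a10 and Cyp4a14 not being in the table used. Ppara, Acadm, Cpt1a and Ehhadh are printed because each has its lowest values after reversal in the same 3 libraries, described below. The RefSeq start lies inside the gene span given below for Ppara and Cpt1a, and a little outside it for Acadm and Ehhadh, so these windows are not centred on the ends of those spans. Each runs 5′ to 3′ on the strand of the gene, and capitals mark TGACCT, the hexamer AGGTCA read on the opposite strand. The windows are chr15:85735526-85735825 (plus strand) for Ppara, chr3:153944594-153944893 (minus strand) for Acadm, chr19:3323051-3323350 (plus strand) for Cpt1a and chr16:21787785-21788084 (minus strand) for Ehhadh.
Ppara: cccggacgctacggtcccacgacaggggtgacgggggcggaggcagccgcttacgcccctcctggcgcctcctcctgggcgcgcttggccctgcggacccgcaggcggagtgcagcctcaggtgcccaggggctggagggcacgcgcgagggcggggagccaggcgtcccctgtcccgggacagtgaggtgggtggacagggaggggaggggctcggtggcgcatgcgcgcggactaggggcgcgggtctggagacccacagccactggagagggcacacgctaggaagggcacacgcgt
Acadm: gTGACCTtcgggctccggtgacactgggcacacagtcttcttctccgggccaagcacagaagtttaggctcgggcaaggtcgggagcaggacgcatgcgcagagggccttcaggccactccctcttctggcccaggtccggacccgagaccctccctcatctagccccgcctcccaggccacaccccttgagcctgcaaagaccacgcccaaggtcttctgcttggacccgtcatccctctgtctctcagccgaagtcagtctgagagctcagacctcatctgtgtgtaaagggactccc
Cpt1a: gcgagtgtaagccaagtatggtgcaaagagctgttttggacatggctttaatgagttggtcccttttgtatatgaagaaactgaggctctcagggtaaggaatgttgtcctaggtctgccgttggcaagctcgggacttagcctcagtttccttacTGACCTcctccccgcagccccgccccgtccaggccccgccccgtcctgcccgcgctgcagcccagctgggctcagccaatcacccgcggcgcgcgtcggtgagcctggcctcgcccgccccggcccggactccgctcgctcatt
Ehhadh: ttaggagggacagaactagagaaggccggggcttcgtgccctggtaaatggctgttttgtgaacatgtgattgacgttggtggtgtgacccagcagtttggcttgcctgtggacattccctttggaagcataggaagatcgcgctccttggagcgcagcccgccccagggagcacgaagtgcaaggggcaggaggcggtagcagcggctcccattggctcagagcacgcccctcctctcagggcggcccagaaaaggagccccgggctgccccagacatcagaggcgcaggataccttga
AGGTCA was searched on both strands. It was found once in the Acadm window, its first base at -249 from the start, and once in the Cpt1a window, at -94, and in none of the other 4 windows. Of all 32851 promoter windows of this length, 16.3% hold it. The full repeat, that hexamer given again after any single base, was in none of the 6 windows and in 0.04% of all of them. With up to 3 mismatches it was in 24.6% of all windows and, of the 6, in that of Acadm. A match describes letters in this window only.

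Ppara, the receptor (ENSMUSG00000022383, chr15:85734983-85802819, plus strand of mm10), overlapped between the genotypes at both stages. At 8 weeks wild-type mice 1 to 4 had 3.17, 1.99, 4.98 and 2.74 FPKM and knockout mice 1 to 4 had 2.65, 3.30, 6.27 and 2.73 FPKM. The highest value of each group came from its mouse 3, and the groups overlapped over most of their range (difference 0.15 ± 0.27, adjusted p = 0.75). After reversal wild-type mice 1 to 4 had 3.54, 6.90, 10.1 and 11.4 FPKM and the knockout mice 10.7, 3.18, 2.34 and 5.80 FPKM. The low values were those of wild-type mouse 1 and knockout mice 2 and 3, so each genotype held both low and high mice (difference -0.54 ± 0.42, adjusted p = 0.77). Without these 3 libraries the difference was -0.20 ± 0.27.

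Cyp4a10 (ENSMUSG00000066072, chr4:115518264-115533649, plus strand), a fatty acid omega-hydroxylase, showed the clearest separation of the genotypes among the 8. The wild-type mice at 8 weeks, 1 to 4 in order, had 182, 62.3, 122 and 107 FPKM and knockout mice 86.3, 67.0, 123 and 97.2 FPKM. These ranges overlapped, with wild-type mouse 1 highest and wild-type mouse 2 lowest (difference -0.27 ± 0.30, adjusted p = 0.63). After reversal wild-type mice 1 to 4 had 505, 606, 595 and 539 FPKM and the knockout mice 281, 349, 249 and 304 FPKM. Every wild-type value lay above every knockout value, and the mice of a genotype were close to each other, with a coefficient of variation of 8.43% in wild-type and 14.3% in knockout livers. The means were 561 ± 47.3 and 296 ± 42.2 FPKM (SD, n = 4), a difference of -0.93 ± 0.16 with an unadjusted p of 1.4e-04, the sixth smallest of 11032 (rank 6), and an adjusted p of 0.23. Genes lower in the knockout without overlap were 0.988% of those tested, and genes lower at an unadjusted p under 0.05 were 1.5%. Over the alternative settings the difference lay between -1.08 and -0.85. The adjusted p went from 0.0133 with limma's sample weights, which made it the single member past the threshold, to 0.999 without wild-type mouse 2 or with scaling to hepatocyte markers. Without the 3 libraries that stood apart it was -0.98 ± 0.11 (adjusted p = 0.14), so the difference was as large in the remaining 5.

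Reads of Cyp4a10 could be split with close copies. Of its 2106 windows of 50 transcript bases, 29.8% also occur in another gene, so its level is uncertain to that extent. Cyp4a32, the closest copy, holds 24.5% of the 2106 windows, and Cyp4a31 shares the next most. After reversal Cyp4a32 averaged 4.89 ± 2.31 (wild type) and 3.14 ± 1.61 FPKM (knockout; SD, n = 4 each), and Cyp4a31 10.8 ± 4.57 and 8.52 ± 1.84 FPKM. Both overlapped between the genotypes, and both stood far below Cyp4a10 in FPKM. Cyp4a10 and Mfap2 lie 25.5 Mb apart on chromosome 4.

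Cyp4a14 (ENSMUSG00000028715, chr4:115486200-115496142, minus strand), a second omega-hydroxylase and a neighbour of Cyp4a10, shares 0.24% of its windows with another gene. In the 8-week table wild-type mice 1 to 4 had 233, 56.1, 84.5 and 148 FPKM, against 83.2, 98.0, 87.9 and 106 FPKM in the knockout mice. The wild-type values spread over a range that held all the knockout values (difference -0.27 ± 0.36, adjusted p = 0.67). After reversal wild-type mice 1 to 4 had 98.8, 254, 410 and 332 FPKM and the knockout mice 167, 105, 111 and 174 FPKM. Wild-type mouse 1 had the lowest level of all 8 libraries and the other 3 wild-type mice had the highest, so the groups overlapped through that mouse (difference -0.83 ± 0.40, adjusted p = 0.61). Without the 3 libraries that stood apart the difference was -0.93 ± 0.19 (adjusted p = 0.31).

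Ehhadh (ENSMUSG00000022853, chr16:21761287-21787807, minus strand) encodes the peroxisomal bifunctional enzyme, which carries out the middle steps of the peroxisomal pathway. At 8 weeks wild-type mice 1 to 4 had 128, 64.5, 62.5 and 41.9 FPKM and knockout mice 39.9, 56.9, 47.2 and 82.7 FPKM. The highest level was that of wild-type mouse 1, and the other wild-type values lay inside the knockout range (difference -0.32 ± 0.32, adjusted p = 0.60). Leaving out wild-type mice 1 and 2 turned the sign, to 0.09 ± 0.29. After reversal Ehhadh was the most variable of the 8 genes in wild-type livers, with 9.01, 50.3, 99.7 and 55.2 FPKM, and the knockout mice had 52.4, 24.4, 14.03 and 52.2 FPKM. Its coefficient of variation was 69.2% in wild-type and 54.8% in knockout livers, and the difference of -0.36 ± 0.67 was smaller than its error (adjusted p = 0.93).

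Cpt1a (ENSMUSG00000024900, chr19:3322334-3385733, plus strand) encodes the carnitine palmitoyltransferase that admits long-chain acyl groups to mitochondria, the controlled step of mitochondrial oxidation. At 8 weeks its levels were 73.5, 67.7, 73.7 and 42.1 FPKM in wild-type mice 1 to 4 and 36.3, 55.5, 78.1 and 54.9 FPKM in knockout mice. Both the lowest and the highest level were in knockout livers (difference -0.21 ± 0.26, adjusted p = 0.66). After reversal its levels were 32.5, 47.6, 64.5 and 51.1 FPKM in wild-type mice and 60.6, 35.3, 37.5 and 52.3 FPKM in knockout mice. The genotypes covered nearly the same range, with a difference of -0.07 ± 0.24 (adjusted p = 0.96) that became 0.06 ± 0.16 without the 3 libraries that stood apart.

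Acadm (ENSMUSG00000062908, chr3:153922357-153944632, minus strand) encodes medium-chain acyl-CoA dehydrogenase, which opens each round of mitochondrial oxidation for medium chains. The wild-type mice at 8 weeks, 1 to 4 in order, had 190, 137, 178 and 169 FPKM and knockout mice 119, 145, 110 and 156 FPKM. The 3 highest libraries were wild type, and wild-type mouse 2 lay among the knockout mice (difference -0.35 ± 0.22, adjusted p = 0.46). After reversal the levels were 59.7, 136, 145 and 134 FPKM in wild-type mice and 123, 87.9, 86.5 and 126 FPKM in knockout mice. Wild-type mouse 1 was the lowest of the 8 and the other 3 wild-type mice the highest (difference -0.10 ± 0.29, adjusted p = 0.95). Without the 3 libraries that stood apart the difference was -0.15 ± 0.11.

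Pdk4 (ENSMUSG00000019577, chr6:5483351-5496309, minus strand) encodes a kinase that shuts the pyruvate dehydrogenase complex and so turns fuel use towards fatty acids. It was expressed at low levels, 4.01, 1.77, 5.53 and 8.58 FPKM in wild-type mice 1 to 4 at 8 weeks and 5.17, 3.92, 6.32 and 5.56 FPKM in knockout mice. The knockout values lay inside the wild-type range (difference 0.19 ± 0.31, adjusted p = 0.74). After reversal wild-type mice 1 to 4 had 0.67, 1.31, 1.00 and 1.83 FPKM and the knockout mice 1.09, 0.97, 0.99 and 0.83 FPKM. Here too the wild-type range held all knockout values (difference -0.14 ± 0.16, adjusted p = 0.87).

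Fgf21 (ENSMUSG00000030827, chr7:45613886-45615490, minus strand) encodes a hormone that the liver secretes on fasting and under stress. In the 8-week table wild-type mice 1 to 4 had 5.23, 3.74, 10.9 and 1.17 FPKM and knockout mice 4.61, 5.68, 7.55 and 8.25 FPKM. The highest and the lowest level were both in wild-type livers (difference 0.49 ± 0.43, adjusted p = 0.56). After reversal the levels were 1.24, 1.27, 1.44 and 1.85 FPKM in wild-type mice and 1.38, 2.06, 2.21 and 1.95 FPKM in knockout mice. Fgf21 was the single member of higher mean in the knockout at this stage, with knockout mouse 1 inside the wild-type range (difference 0.24 ± 0.14, adjusted p = 0.69). Differences of Ppara, Pdk4 and Fgf21 are understated on this scale because their levels are low enough for the added 1 FPKM to matter.

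**Figure D2:**
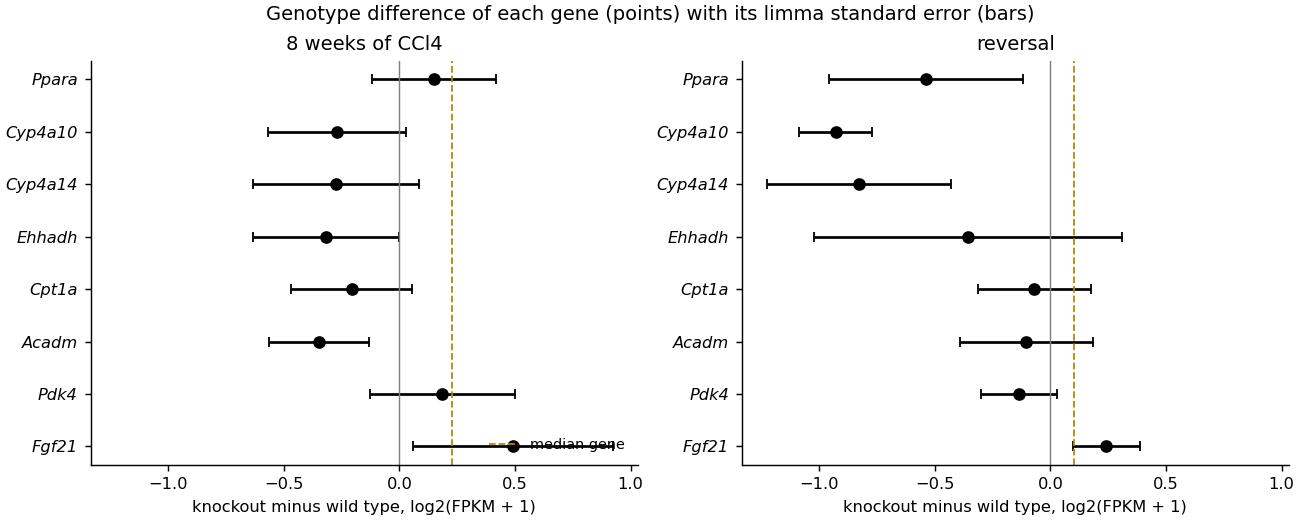
Genotype difference of each gene (horizontal axis, knockout minus wild type on log2(FPKM + 1)) at 8 weeks of CCl4 and after reversal, 4 mice per genotype, with bars for the limma standard error and a dashed line at the median of all genes tested. Cyp4a10 after reversal, at -0.93 ± 0.16, is the point farthest below 0 in units of its error.

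Over the 8 genes the median difference was -0.24 at 8 weeks, where the median gene stood at 0.23, and -0.25 after reversal, where it stood at 0.10. At an adjusted p under 0.05 limma called 0 of the 8 at 8 weeks, against 0.00838% of all genes (1 gene, Mmp13, a collagenase named after its value was seen), and 0 of the 8 after reversal, against 0.0% of all genes. At an unadjusted p under 0.05 it called 0 and 1 of the 8, against 14.4% and 8.46% of all genes. Without overlap between the genotypes were 0 and 1 of the 8, against 6.9% and 4.6% of all genes. Leaving out the libraries that stood apart gave a median difference of -0.16 at 8 weeks and -0.24 after reversal. The median at 8 weeks was 0.03 without wild-type mouse 1 and 0.14 when libraries were scaled to hepatocyte markers, the settings that turned its sign. Scaled that way, 5 of the members that were lower at 8 weeks became higher, from 0.03 for Acadm to 0.17 for Cpt1a.

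The pattern across mice after reversal was shared by 5 of the 8 genes. Wild-type mouse 1 and knockout mice 2 and 3 held the 3 lowest levels of Ppara, Cyp4a14, Ehhadh, Cpt1a and Acadm. These are the libraries with the highest share of mitochondrial transcripts, and the part of that share in the pattern was not tested. Cyp4a10 did not follow it: wild-type mouse 1, lowest for Cyp4a14, Ehhadh, Cpt1a and Acadm, had 505 FPKM of Cyp4a10, and knockout mouse 1, second of the 8 libraries for Ppara and Cpt1a, had 281 FPKM. Because the libraries fall into these separate sets, no correlation between the members over all 8 is given. At 8 weeks wild-type mouse 1 had the highest level of Cyp4a10, Cyp4a14, Ehhadh and Acadm, and wild-type mouse 2 the lowest of Ppara, Cyp4a10, Cyp4a14 and Pdk4.

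**Figure D3:**
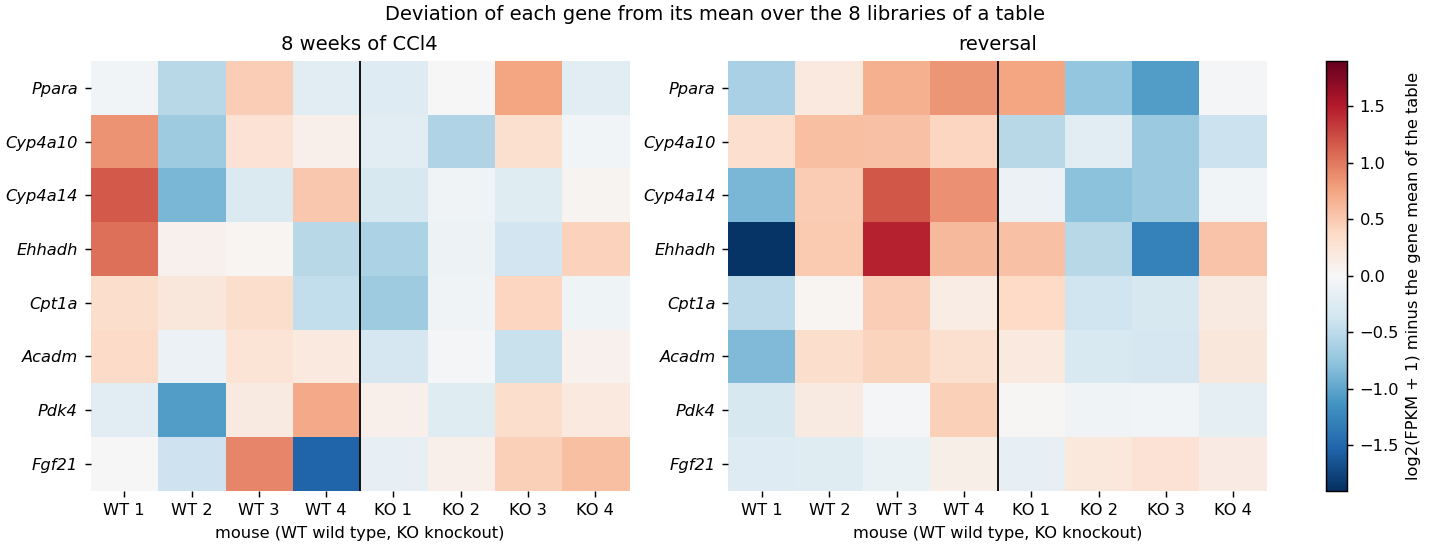
Each square is log2(FPKM + 1) of a gene in a mouse minus that gene's mean over the 8 libraries of its table, from blue (below) to red (above), for 4 wild-type (WT) and 4 knockout (KO) mice at each stage. After reversal WT 1, KO 2 and KO 3 are blue for Ppara, Cyp4a14, Ehhadh, Cpt1a and Acadm, whereas Cyp4a10 is red in the 4 wild-type and blue in the 4 knockout mice.

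Set side by side without a test, the order of the genes differed between the stages. Among the 12446 genes listed in both tables, Cyp4a10 stood between percentiles 92.8 and 97.4 of a library at 8 weeks and between 97.3 and 98.8 after reversal. Acadm stood between 95.8 and 97.5 and between 91.9 and 95.5. Ppara ranked from 30.8 to 47.9 at 8 weeks and from 34.8 to 72.1 after reversal. The fuel-switch kinase and the hormone ranked lower after reversal: Pdk4 stood between 32.1 and 58.8 and then between 17.7 and 34.9, and Fgf21 between 18.3 and 67.0 and then between 26.7 and 35.3. At both stages Cyp4a10, Cyp4a14 and Acadm had the highest group means in FPKM, then Ehhadh and Cpt1a, and Ppara, Pdk4 and Fgf21 the lowest. Within each of these sets neighbours overlapped between mice at 8 weeks, while after reversal Cyp4a10 lay above Acadm in all 8 libraries.

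The genotype effect was also compared between the stages, as an interaction term over the 10647 genes tested in both tables. It was below 0, meaning a lower knockout level relative to wild type after reversal than at 8 weeks, for 6 of the 8 genes, where 69.2% of all genes were. Cyp4a10 had -0.66 ± 0.37 (unadjusted p = 0.087) and Ppara -0.69 ± 0.52 (unadjusted p = 0.20), and every member had an adjusted p of 1.0. Members called were 0 of 8, against 0.0% of all genes at the adjusted threshold. At an unadjusted p under 0.05 they were also 0 of 8, against 2.76% of all genes (0.761% above 0). The separation of Cyp4a10 after reversal is therefore not shown to differ from its effect at 8 weeks.

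The wider pathway was taken as 9 lists with 135 genes in all, the 8 included, of which 130 were tested at each stage. With limma 0 of them passed the adjusted threshold. At 8 weeks 78 of 130 were lower in the knockout (against 17.4% of all genes), and after reversal 94 of 130 (72.3%, against 29.3%). After reversal 16 were lower and 4 higher at an unadjusted p under 0.05, where 1.5% and 6.95% of all genes were, and 11 were lower without overlap and 0 higher, where 0.988% and 3.62% were. At 8 weeks 10 were lower and 8 higher at that p, where 1.62% and 12.8% of all genes were, and 3 were lower and 2 higher without overlap, where 0.612% and 6.29% were. Without the libraries that stood apart 72 of 130 were lower at 8 weeks, where 43.0% of all genes were, and 83 of 130 after reversal, where 32.8% were. Scaled to hepatocyte markers, 25 of 130 were lower at 8 weeks, where 4.8% of all genes were, and 97 of 130 after reversal, where 31.1% were. Without the libraries that stood apart, the genes lower at an unadjusted p under 0.05 numbered 4 at 8 weeks, where 1.03% of all genes were, and 18 after reversal, where 1.86% were. Those lower without overlap then numbered 7, against 4.69% of all genes, and 32, against 6.61%.

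The 11 genes that separated after reversal, Cyp4a10 among them, belong to several steps. In peroxisomes, Pex11a, which drives peroxisome division, had 50.9, 58.5, 39.4 and 54.6 FPKM in wild-type mice 1 to 4 and 28.4, 23.7, 25.5 and 32.4 FPKM in knockout mice. It had the smallest p of the peroxisomal list (difference -0.86 ± 0.17, unadjusted p = 5.0e-04, adjusted p = 0.30). Acaa1b, a peroxisomal thiolase that closes each round of chain shortening, had 446, 475, 528 and 365 FPKM against 215, 289, 267 and 363 FPKM, so that wild-type mouse 4 and knockout mouse 4 nearly met (difference -0.69 ± 0.19, adjusted p = 0.50). The acyl-CoA thioesterases Acot3 and Acot4, which release free acids and are named after their values were seen, averaged 30.0 ± 5.46 and 16.8 ± 1.21 FPKM in the wild type, against 14.1 ± 8.49 and 11.5 ± 2.34 FPKM in the knockout (SD, n = 4 each). Their relative Acot1, a cytosolic thioesterase, had 7.90, 17.8, 20.4 and 22.3 FPKM against 8.03, 3.79, 2.65 and 8.63 FPKM and overlapped through wild-type mouse 1 (difference -1.44 ± 0.38, adjusted p = 0.50). The Acot genes are close copies of each other, so the authors' counting could have split their reads.

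At the lipid droplet, Plin5, which tethers droplets to mitochondria, had 13.0, 21.1, 13.9 and 23.5 FPKM in wild-type mice and 8.91, 7.59, 7.28 and 12.4 FPKM in knockout mice after reversal. Wild-type mouse 1 and knockout mouse 4 were the closest pair (difference -0.89 ± 0.23, adjusted p = 0.50). Plin4, another droplet coat protein, had 2.79, 3.84, 1.55 and 4.60 FPKM against 1.49, 0.54, 0.61 and 1.46 FPKM (difference -1.03 ± 0.27, adjusted p = 0.50). The difference of Plin4 is also understated on this scale, as its levels are near the added 1 FPKM. In the carnitine shuttle, Slc25a20, which carries acylcarnitine across the inner membrane, stood at 64.0 ± 3.18 and 51.9 ± 5.13 FPKM. Acacb, whose product malonyl-CoA inhibits Cpt1a and so acts against import, stood at 9.01 ± 0.91 and 5.42 ± 1.495 FPKM. In the mitochondrial pathway, Hadha, a subunit of the trifunctional protein, stood at 59.9 ± 5.45 and 47.9 ± 6.86 FPKM, and Acadl, the long-chain dehydrogenase named after its values were seen, at 118 ± 4.33 and 105 ± 6.53 FPKM. In each of these 4 the lowest wild-type value lay close above the highest knockout value.

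**Figure D4:**
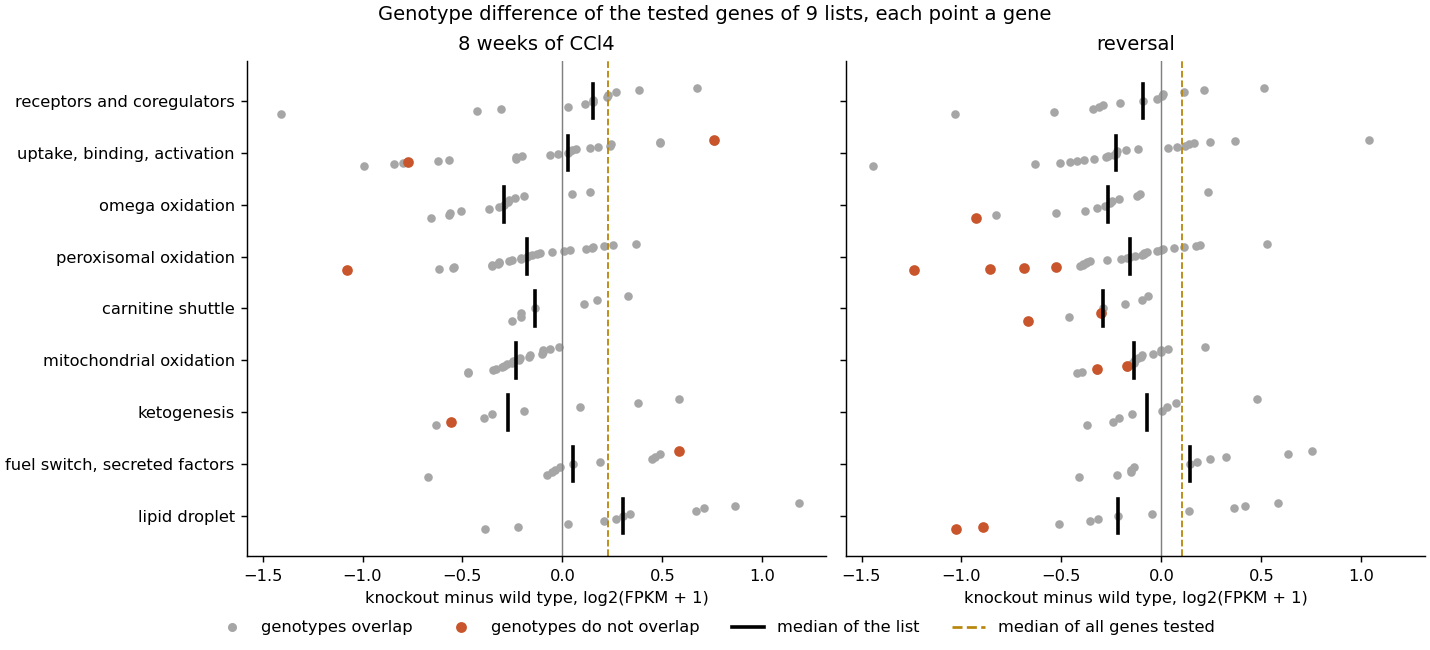
Genotype difference (horizontal axis, knockout minus wild type on log2(FPKM + 1)) of the tested genes of the 9 lists, 1 point per gene, orange where the 4 wild-type and 4 knockout mice do not overlap, with a black bar at the median of the list and a dashed line at the median of all genes tested. After reversal 11 genes are orange and all lie below 0; at 8 weeks 5 are orange, 3 below and 2 above 0.

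The lists are given by step of the pathway, and their counts stand beside shares over all genes of 17.4% lower at 8 weeks and 29.3% after reversal, or 1.62% and 1.5% lower at an unadjusted p under 0.05. Mitochondrial oxidation had 18 of 18 lower at 8 weeks, with a median difference of -0.23, and 16 of 18 after reversal, with a median of -0.13, and 0 and 1 of these had an unadjusted p under 0.05. Omega oxidation had 11 of 13 lower at 8 weeks and 11 of 12 after reversal, with medians of -0.29 and -0.27. Peroxisomal genes were lower for 19 of 27 and 21 of 27, with medians of -0.18 and -0.16, of which 2 and 5 had an unadjusted p under 0.05. The carnitine shuttle had 4 of 7 and 7 of 7 lower. At 8 weeks these medians moved towards 0 without wild-type mice 1 and 2, to -0.06 for mitochondrial, -0.05 for omega, 0.01 for peroxisomal and -0.04 for carnitine genes. After reversal without the 3 libraries they were -0.07, -0.27, -0.12 and -0.26.

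The remaining lists were mixed. Among receptors and coregulators 3 of 12 were lower at 8 weeks and 8 of 13 after reversal. Pparg, the PPAR of fat cells and macrophages, was higher in the knockout at both stages, at 4.85 ± 1.55 and 8.15 ± 1.17 FPKM at 8 weeks (adjusted p = 0.20) and 4.25 ± 1.34 and 6.35 ± 0.72 FPKM after reversal (adjusted p = 0.55). Lpin1, a phosphatidate phosphatase that also coactivates PPAR-alpha, stood at 21.8 ± 7.11 and 9.35 ± 7.51 FPKM and at 28.1 ± 7.56 and 15.3 ± 9.60 FPKM, with overlap at both stages. Of the genes for uptake, binding and activation 11 of 23 were lower at 8 weeks and 15 of 23 after reversal, with Pnpla2, the first lipase of stored fat, at 56.4 ± 10.1 and 32.4 ± 4.45 FPKM at 8 weeks. Lpl, which splits circulating triglyceride, went the other way at that stage, at 52.7 ± 10.6 and 90.3 ± 22.1 FPKM, and neither overlapped between genotypes. Ketogenesis genes were lower for 5 of 8 and 4 of 8. In the fuel-switch and hormone list 5 of 11 were lower at each stage, and Fgfr1, a receptor of Fgf21, stood at 3.23 ± 0.79 and 5.53 ± 0.93 FPKM after reversal. The lipid droplet list had 2 of 11 lower at 8 weeks and 7 of 11 after reversal.

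At 8 weeks the smallest p of the pathway belonged to Pecr, the peroxisomal enoyl reductase. It had 69.7, 82.2, 51.9 and 38.9 FPKM in wild-type mice 1 to 4 and 24.6, 32.7, 25.3 and 26.5 FPKM in knockout mice. All wild-type values lay above all knockout values (difference -1.08 ± 0.24, adjusted p = 0.093). After reversal Pecr stood at 116 ± 9.92 and 110 ± 16.4 FPKM and overlapped. Plin2, the main droplet coat protein of hepatocytes, stood at 386 ± 171 and 582 ± 120 FPKM at 8 weeks, and Pdk3, a relative of Pdk4, at 1.10 ± 0.31 and 2.17 ± 0.59 FPKM.

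Marker lists of the tissue are given beside these genes, with 0 adjusted calls by limma in any list described here. Over all genes the knockout had the higher level for 82.6% at the first stage and 70.7% at the second. Summed macrophage markers lay between 748 and 1126 FPKM in wild-type and between 1287 and 1900 FPKM in knockout livers after reversal, with 17 of 18 higher in the knockout, 7 of them at an unadjusted p under 0.05 (6.95% of all genes). At 8 weeks the sums overlapped, at 1192 to 1770 and 1482 to 2824 FPKM, with 16 of 18 higher, 11 of them at that p (12.8% of all genes). Stellate cell markers were higher for 15 of 15 at both stages, and their sums were 342 to 577 and 503 to 791 FPKM at 8 weeks and 129 to 319 and 200 to 331 FPKM after reversal, overlapping at both stages. Endothelial markers were higher for 11 of 11 at 8 weeks and 10 of 11 after reversal, and cholangiocyte markers for 8 of 8 and 6 of 8. Summed hepatocyte markers overlapped after reversal, at 129413 to 179259 FPKM in wild-type and 117132 to 179081 FPKM in knockout livers. Of these markers 17 of 26 were lower in the knockout after reversal, where 29.3% of all genes were. Their median difference was -0.05, and 0.05 without the 3 libraries that stood apart. At 8 weeks the sums lay between 79136 and 133228 FPKM and between 63371 and 99640 FPKM, and 24 of 27 markers were lower in the knockout. Zonated hepatocyte genes were lower too: pericentral genes for 11 of 16 at 8 weeks, with a median difference of -0.70 and 7 at an unadjusted p under 0.05 (1.62% of all genes), and for 15 of 18 after reversal, with a median of -0.11. At 8 weeks 5 of 17 periportal genes and 4 of 27 hepatocyte markers were lower at that p as well. After reversal 1 pericentral gene, 0 periportal genes and 0 hepatocyte markers were (1.5% of all genes). Periportal genes were lower for 17 of 17 at 8 weeks, with a median of -0.69, and 13 of 17 after reversal, with a median of -0.15. Without the libraries that stood apart these medians were -0.30 and -0.18 for pericentral and -0.17 and 0.02 for periportal genes. Sex-biased liver genes were lower for 7 of 9 and 8 of 10, with medians of -0.29 and -0.45. Of 5 sex-linked genes 4 were listed at 8 weeks, Ddx3y, Eif2s3y, Kdm5d and Uty, and 0 after reversal. At 8 weeks all of them were detected in every mouse of both genotypes, with 1.10 FPKM as the lowest value. After reversal these genes do not give the sex of the mice. The part of cell makeup in the differences described was not tested.

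Of 10 adipocyte markers 4 were listed at 8 weeks and 5 after reversal, with Adipoq, Plin1 and Lep not among them, and summed muscle markers reached at most 4.32 FPKM. Of those listed, Pck1 is also a gluconeogenic gene of hepatocytes and stood at 484.5 to 1406 FPKM after reversal. Fabp4, a fatty acid binding protein of fat cells and macrophages, named after its values were seen, lay between 6.73 and 15.02 FPKM in wild-type and between 15.4 and 52.3 FPKM in knockout livers after reversal. Summed clock genes overlapped after reversal, at 268 to 314 FPKM in wild-type and 171 to 329 FPKM in knockout mice. Of 16 tested, 12 were lower in the knockout, where 29.3% of all genes were. At an unadjusted p under 0.05, 6 were lower and 2 higher, where 1.5% and 6.95% of all genes were. Without overlap 2 were lower and 1 higher, where 0.988% and 3.62% were. Usp2 was lower, at 14.15 to 21.23 FPKM in wild-type and 2.89 to 12.81 FPKM in knockout mice. Ciart was lower too, at 21.14 to 26.55 and 3.44 to 21.12 FPKM. Nr1d1 was higher, at 12.64 to 19.12 and 19.28 to 29.74 FPKM. Usp2, Ciart and Nr1d1 were named after their values were seen. At 8 weeks 9 of 16 clock genes were lower, where 17.4% of all genes were. Of these 3 had an unadjusted p under 0.05 (1.62% of all genes), and 0 were higher at that p. Without overlap 1 was lower (0.612% of all genes) and 0 higher. It was Nr1d1, at 13.38 to 22.64 FPKM in wild-type and 7.53 to 12.88 FPKM in knockout mice, the opposite direction to reversal. A sum or a median over the list can hide genes that move in opposite directions. The median difference of the clock genes after reversal was -0.31, and -0.04 without the 3 libraries that stood apart. Their sums in knockout mice 1 to 4 were 251, 230, 171 and 329 FPKM, so the lowest was knockout mouse 3, one of those 3 libraries. Genes of gluconeogenesis raised by fasting were lower for 8 of 10 at 8 weeks and 6 of 9 after reversal. Lipogenic genes raised by feeding were lower for 4 of 11 and 9 of 12. Of all genes 17.4% and 29.3% were lower. The part of sampling hour or feeding in the results was not tested.

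The genes whose pattern was most like that of a member were found by the smaller of the Pearson coefficients at the 2 stages, each over 8 libraries, among 10647 genes. All points share their library, with its scaling and makeup, so the values are a description, and after reversal they include the gap between wild-type mouse 1 with knockout mice 2 and 3 and the other 5 libraries, for which no coefficient between members was given. Ppara went most closely with Gpam (0.89), Narf (0.89) and Mapk14 (0.88). Ehhadh was most like Echs1, Tmco1 and Aldh6a1 (0.92 each). Of these Echs1 encodes the mitochondrial enoyl-CoA hydratase. Cpt1a was most like Slc10a5 (0.93), Slc31a1 (0.93) and Ptprd (0.91), and Acadm like Grpel1 (0.88), Uqcrc2 (0.88) and Ipp (0.87). For Cyp4a14 the nearest were Gde1 (0.82), Chuk (0.82) and Cry2 (0.81), and for Pdk4 Sgsm3 (0.90), Zfc3h1 (0.87) and Dpf2 (0.87). For Cyp4a10 they were Tmem183a (0.85), Gin1 (0.79) and Lpin2 (0.77), and for Fgf21, whose nearest gene was the least close of the 8, Slc17a4 (0.75), Ppp1r21 (0.72) and Syce2 (0.72). No other member was among the 3 nearest of any member.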

How the data were processed

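Expression values in FPKM were deposited by the authors as 1 table for each stage. HISAT, Cufflinks and the mm10 build are named, per the submitters' processing notes, without versions or roles. Libraries were made with the NEBNext Ultra kit at 8 weeks and with that or a VAHTS Universal kit for reversal, per the labels' protocols. The table headers name no unit; FPKM sums were 428142 to 478062 at 8 weeks and 878889 to 959698 after reversal, and for the latter TPM over a filtered set of genes is possible. The 8-week table lists no mitochondrial genes. The depth in reads is unknown, since the values are not whole multiples of a common step, and so no counting interval is given. The labels do not say whether further samples of a mouse were pooled, and p-values measure the spread between these samples.

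Each table was filtered to genes whose mean reached 0.5 FPKM, and these were tested with limma 3.58.1 (R 4.3.3, trended and robust prior, Benjamini-Hochberg over all genes tested) on log2(FPKM + 1). Each stage was fitted in its own table, and the interaction over 16 libraries. Mfap2 was tested with an exact permutation test. The fits were tested on simulated data with independent noise for each gene and library. These data lack the shared component and the libraries that stood apart, so the check does not cover calls under that structure. The 8 genes, the 9 pathway lists and the marker lists were chosen with earlier results of these data known. Named pathway genes are the 2 with the smallest unadjusted p in each list at each stage. Mmp13, Acot3, Acot4, Acadl, Fabp4, Usp2, Ciart and Nr1d1 were named after their values were seen. Alternatives were other scalings, pseudocounts, filters, priors and sample weights, a replicate block and left-out libraries.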

Additional observations from a re-analysis of the deposited data

Results flagged for a closer look

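In 3 of the 112 groups of 4 mice checked, a single mouse lay farther from the others than the critical value of Dixon's test for 4 values allows, and chance alone flags about 1 group in 20. Acadm stood at 59.7 FPKM in wild-type mouse 1 after reversal, where the nearest wild-type mouse had 134 FPKM. Slc16a7, a monocarboxylate transporter, stood at 27.4 FPKM in the same mouse, where the nearest had 38.5 FPKM. Pdk3 stood at 3.05 FPKM in knockout mouse 3 at 8 weeks, where the nearest had 1.93 FPKM.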

How the results depend on the processing

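The count of genes called at 8 weeks, 1 as reported, was 2 with median-ratio scaling, 96 with hepatocyte marker scaling, 3 with either smaller pseudocount, 2 without trend and robust prior, 1615 with sample weights, 0 with the replicate block and 2 without wild-type mice 1 and 2; leaving out single mice gave 1 to 1465, the highest without wild-type mouse 4. Sample weights called 18 genes after reversal, 1 of them a member (Cyp4a10), and 10 for the stage difference, which had 1 without the 5 libraries that stood apart and 0 to 1 without single mice. The median member at 8 weeks was -0.55 with median-ratio and 0.14 with hepatocyte marker scaling. Members without overlap at 8 weeks numbered 1 with median-ratio scaling and 0 to 1 without single mice, and 1 to 3 after reversal, 3 without wild-type mouse 1. The shares over all genes under these settings are not given, and with fewer mice any gene separates more easily. Of all genes, 0.988% were lower without overlap after reversal, and 6.61% without the 3 libraries that stood apart. These member counts are therefore not read as a result. Pathway genes lower at an unadjusted p at 8 weeks numbered 18, 1, 37 and 4 with median-ratio scaling, hepatocyte scaling, sample weights and without wild-type mice 1 and 2 (5.03%, 0.29%, 4.31% and 1.03% of all genes), and 6 to 28 without single mice (28 without wild-type mouse 4, 3.99% of all genes); those higher numbered 2, 15 and 3 with median-ratio scaling, sample weights and without both mice (5.61%, 31.99% and 4.43%), and 5 to 14. After reversal the lower ones numbered 35, 28 and 25 with median-ratio scaling, quantile normalization and sample weights (3.33%, 3.19% and 2.6% of all genes, 1.5% as reported), and 9 to 30 without single mice (30 without wild-type mouse 1, 2.23% of all genes, and 9 without wild-type mouse 2, 0.99%); the higher ones 2 with hepatocyte scaling (1.59%), and 2 to 6. Without a mouse the Mfap2 difference was -1.81 to -1.09 FPKM at 8 weeks and -0.37 to -0.27 FPKM after reversal, where 4 mice against 3 cannot reach the threshold.

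Signs turned at 8 weeks for Ppara (-0.0949 median-ratio, -0.12 quantile, -0.0597 without wild-type mice 1 and 2, -0.0756 to 0.33 without single mice) and Pdk4 (-0.0617, -0.0882, -0.36, and -0.14 to 0.46). Hepatocyte scaling turned Acadm (0.0298), Cyp4a14 (0.10), Cyp4a10 (0.11), Ehhadh (0.0573), Cpt1a (0.17) and Cpt2 (0.12). Ehhadh was 0.09 without wild-type mice 1 and 2, and Cyp4a14 -0.61 to 0.0714 without single mice. After reversal, leaving out single mice gave -1.04 to 0.0726 for Ehhadh, -0.40 to 0.0186 for Acadm, -0.25 to 0.0745 for Cpt1a and -0.40 to 0.0833 for Alb; without the 3 libraries that stood apart Cpt1a was 0.0610 and Alb 0.13. The stage difference was 0.14 for Ehhadh with median-ratio scaling, 0.41 with sample weights and -0.72 to 0.39 without single mice; -0.15 for Acadm with hepatocyte scaling and -0.055 to 0.37; -0.25 for Cpt1a and -0.0517 to 0.33; 0.0876 for Pdk4 without the 5 libraries and -0.60 to 0.0008; and -0.64 to 0.18 for Fgf21. The cause was not tested.

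Mouse numbers did not pair the samples: same-numbered deviations had correlations from -0.442 to 0.373 (8 weeks) and from -0.656 to 0.367 (reversal). With the replicate block Cyp4a10 after reversal had -0.93 (limma, adjusted p = 0.42), and 0 genes were called at either stage.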
